A study of Mus musculus with 24 samples.

Results

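The data were used to ask how the response to interferon γ (IFNγ) differed between day 5 and day 2 of reprogramming under continued treatment: which responses were weaker at day 5, which were kept and which appeared late. The IFNγ effect on a day is the mean log2(normalized count + 1) of 2 IFNγ-treated libraries minus that of 2 control libraries, and its change is the effect at day 5 minus the effect at day 2. Genes with a mean normalized count above 10 over these 8 of the 24 libraries were included, which were 15837 of 37315 genes. The effect differed between the days for 107 of them, and it was lower at day 5 for 75 and higher for 32 (adjusted p under 0.1, limma).

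All 4 groups were PaX cells of a hybrid 129S1/SvImJ and CAST/EiJ line, in which a doxycycline-driven cassette of Myc, Klf4, Oct4 and Sox2 sits in Sp3. The line also carries an X-GFP reporter, a Nanog reporter and a truncated Tsix, in control and treated cells alike. Neural precursor cells (NPCs) made from it were reprogrammed with doxycycline, LIF and ascorbic acid on irradiated male mouse embryonic fibroblasts, with or without 10 ng/ml IFNγ from day 0 onward. Day 2 cells were those without the dye CFSE, with which the feeders had been stained, whereas day 5 cells carried SSEA1, a surface marker of reprogramming cells. The day and the sort therefore cannot be told apart. Each group had 2 libraries, which the study's methods call independent replicates. The labels do not say whether they came from separate cultures, so the p-values measure the spread between these libraries.

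IFNγ binds a receptor that signals through JAK kinases to GAS elements of primary targets such as Irf1. IRF1 and CIITA carry the response further, to guanylate-binding proteins, to MHC class I and, through CIITA, to MHC class II. Type I interferons act mainly through the complex ISGF3, which binds ISRE elements of antiviral genes such as Rsad2, Ifit1 and Isg15, and pluripotent cells are known for a weak interferon response.

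The groups differed in their cell markers. The 7 pluripotent markers summed to 8343 to 11025 normalized counts at day 2 and to 50581 to 53731 at day 5, whereas the 8 neural precursor markers summed to 13520.5 to 19214 at day 2 and to 4972 to 5769 at day 5. The 12 fibroblast markers summed, at day 2, to 21971 and 26347 in control libraries and to 20297 and 20913 with IFNγ. At day 5 these sums were 3360 and 5858 against 2230 and 3561, and 1 or 2 of the 12 were at 0 in each library. In NPCs the 12 summed to 11561 and 14819, so they do not mark feeders alone. The 4 Y-linked genes, which mark the male feeders, summed to 218 and 253 in control and 125 and 223 in treated libraries at day 2, to between 2.66 and 8.7 at day 5 and to at most 1.94 in NPCs and ESCs. The 10 macrophage markers summed to 543 to 789 at day 2 and to 1152 to 1871 at day 5, against 1530 and 1578 in ESCs. Most of this came from Laptm5 and Cd68, and the myeloid adaptor Tyrobp was at 0 in all 4 day 5 libraries. The 7 lymphocyte markers summed to at most 44.7, with Ifng at 0 in all 8 libraries, and the 6 endothelial markers to 776 to 914 at day 2 and 1783 to 2452 at day 5. In such bulk samples, fewer cells of a type and less RNA per cell cannot be told apart, and the part of these differences in the results below was not tested.

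A lower effect at day 5 was called more often than a higher one (percentages are of the 15837 genes). The change was called lower for 0.474% and higher for 0.202% of genes, and 789 and 750 had an unadjusted p under 0.05. IFNγ raised 541 genes at day 2 (3.42%) and lowered 303 (1.91%), and at day 5 it raised 792 (5.00%) and lowered 647 (4.09%). Of the 541 genes raised at day 2, 41 had a weaker effect at day 5 that was still called, 30 had a weaker effect no longer called, and 2, Plekha2 and Pfkp, were lowered at day 5. Another 220 were raised at both days without a called change, and in 124 of these the 95% interval of the change lay within ±1 on the log2 scale. The effect strengthened in 2. A further 246 were raised at day 2 alone, without a called change, while 507 genes were raised at day 5 alone without one. A late increase, called for the change and at day 5 but not at day 2, was found in 16 genes, and a late decrease in 2, Plxnb1 and Id2. Among the 303 genes lowered at day 2, the effect weakened in 8 and turned into an increase in 6. Another 109 were lowered at both days, 98 of them with the interval within ±1. Without a called change, 180 were lowered at day 2 alone and 534 genes at day 5 alone. Calls at day 2 and calls of the change share the day 2 libraries, so genes called at day 2 lean toward a change in the opposite direction. The counts depended on single libraries. Without IFNγ-treated replicate 1 of day 5, 190 genes were higher and 269 lower, and these held all 32 and all 75. The higher genes numbered 10 and 8 without either day 2 control library, 9 and 12 without either day 2 IFNγ-treated library, 20 without control replicate 2 of day 5 and 17 without IFNγ-treated replicate 2 of day 5. The lower genes numbered 49 without control replicate 2 and 42 without IFNγ-treated replicate 1 of day 2. Under each of 16 alternatives, 8 of which leave out 1 library, 36 of the 75 lower and 4 of the 32 higher genes (Ddx58, Enpp3, Oasl2 and Rsad2) were called. Calls that were lost are given with the genes below, where "fits without 1 library" are these 8. A block on the replicate number within each day called 27 of the 57 named genes whose change is given as not called, so that a missing call shows no lack of a change.

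**Figure D1:**
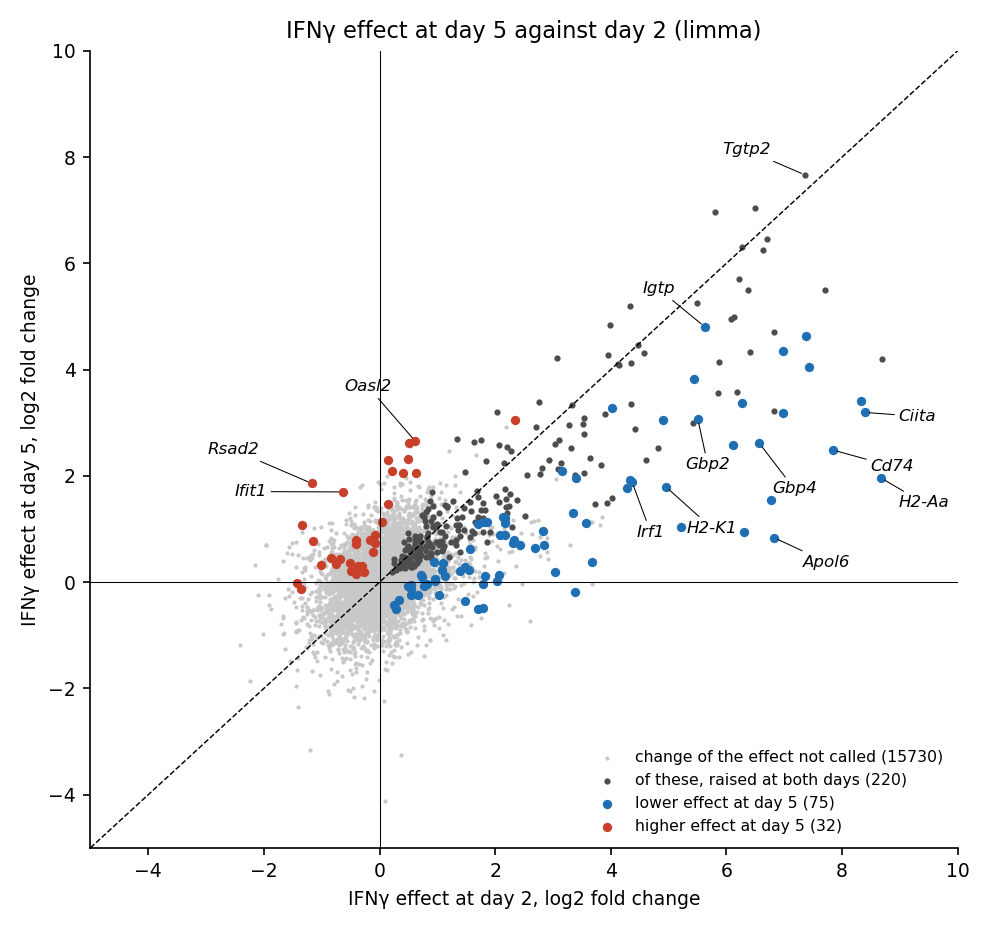
IFNγ effect at day 2 (x axis) and day 5 (y axis) for the 15837 genes, as log2 fold change from limma, with the dashed line marking equal effects. The 75 genes with a lower effect (blue) lie below the line and 73 of them were raised at day 2, the 32 with a higher effect (red) lie above it, 14 of them lowered at day 2, and the 220 genes raised at both days without a called change are dark gray.

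The change of the effect is the change in treated cells minus that in control cells, and both moved. From day 2 to day 5, 34.9% of genes rose and 37.3% fell in IFNγ-treated cells, and 35.5% rose and 36.0% fell in control cells. Among the 75 genes with a lower effect, the transcript fell in treated cells while it rose in control cells for 26, fell in treated cells with no called change in control cells for 12, and fell in both for 19. It rose in both for 13, and rose in control cells alone for 5. The median was −1.59 in treated and 0.508 in control cells. Of the 32 genes with a higher effect, 21 fell in both, with a median of −1.65 in treated and −2.96 in control cells over the 32, so that most of them were less abundant at day 5 in either arm. The difference in normalized counts between the arms, in place of the log2 ratio, moved the same way for 74 of the 75 lower genes and for 25 of the 32 higher genes. The other 7, among them H2-T24, Ifi44, Ifit3, Lgals3bp, Oasl2 and Rtp4, had a larger ratio but a smaller difference in counts at day 5.

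**Figure D2:**
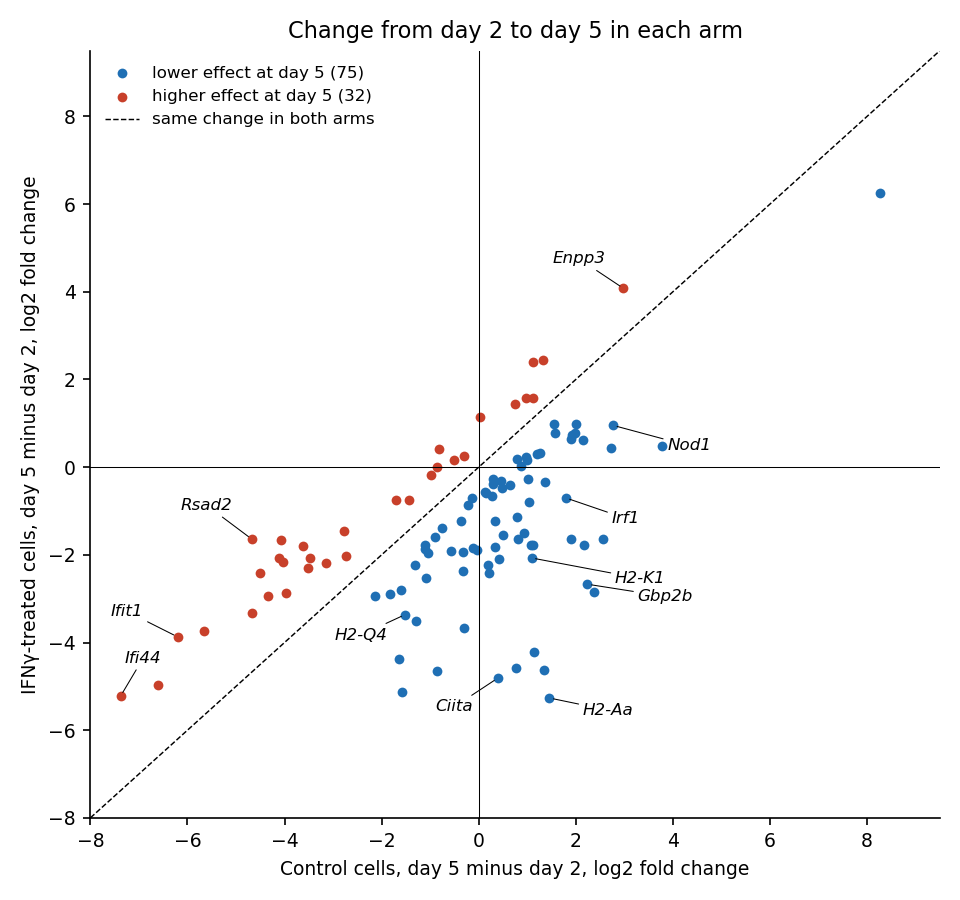
Change from day 2 to day 5 in control cells (x axis) and in IFNγ-treated cells (y axis), as log2 fold change, for the 75 genes with a lower effect (blue) and the 32 with a higher effect (red), with the dashed line marking the same change in both arms. MHC class II genes such as H2-Aa fell in treated and rose in control cells, where H2-Aa was near the floor at both days. Antiviral genes such as Ifi44 fell in both and fell further in control cells.

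The MHC class II genes, which encode the molecules that present peptides to CD4+ T cells, had the largest losses. The effect was lower at day 5 in 6 of the 11 members tested, Ciita, H2-Aa, H2-Ab1, H2-Eb1, Cd74 and H2-DMb1, by 4.19 to 6.72 on the log2 scale, and higher in 0. The list's median effect was 5.22 at day 2 (5.46 with genes at the floor set to their bounds) and 0.947 at day 5, while that of all genes was 0.00376 and −0.00104. All 6 fell in treated cells, and 5 of them rose in control cells, though from low counts, near the floor in H2-Aa and H2-DMb1. Without single libraries the count was 5 to 7. The calls of H2-Ab1, H2-Eb1, Cd74 and H2-DMb1 held under each alternative. That of Ciita was lost with a pseudocount of 0.1 (adjusted p = 0.155, limma), by DESeq2 (adjusted p = 0.102) and by edgeR (adjusted p = 0.378). That of H2-Aa was lost with a pseudocount of 0.1 (adjusted p = 0.204, limma), by edgeR (adjusted p = 0.106), without IFNγ-treated replicate 1 of day 2 and without IFNγ-treated replicate 2 of day 5 (adjusted p = 0.109 to 0.125, limma).

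H2-Aa, which encodes the α chain of the class II molecule I-A, lies on chromosome 17 (34282744 to 34287823, minus strand, GRCm38). Its normalized counts were 0 and 3.97 in control libraries and 1209 and 689.7 with IFNγ at day 2, and 5.89 and 4.44 against 31 and 16.6 at day 5. The arms did not overlap at either day, but the treated libraries of day 5 were far below those of day 2. The effect went from 8.68 to 1.96, the latter not called, a change of −6.72 ± 0.96 (SE, adjusted p = 0.0205, limma). H2-Ab1, the β chain of I-A, had 13.2 and 9.93 against 1263 and 767 at day 2 and 21.9 and 18.6 against 45.7 and 34.8 at day 5, a change of −5.36 ± 0.43 (adjusted p = 0.00103, limma). H2-Eb1, the β chain of I-E, went from 9.17 and 6.95 against 1212 and 789 to 41.2 and 50.6 against 115 and 159.8. Its treated libraries stayed above the controls and the effect of 1.55 at day 5 was still called, although the control level had risen by 2.38 on the log2 scale.

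Cd74, the invariant chain that guides class II molecules through the cell, had 7.13 and 5.96 in control and 2359 and 1257 in treated libraries at day 2, and 16 and 15.1 against 95.7 and 87.8 at day 5. The effect was 7.84 and 2.49, both called, with a change of −5.35 ± 0.42 (adjusted p = 0.00103, limma). Ciita, the master regulator of class II transcription, was at or near 0 in every control library, with 1.02 and 0 at day 2 and 0.842 and 0.888 at day 5. In treated libraries it had 606 and 378 at day 2 and 15.5 and 16.6 at day 5. With at most 3 reads in each control library, it was at least 163-fold higher with IFNγ at day 2 and at least 6.19-fold higher at day 5. H2-DMb1, a chain of the peptide exchanger H2-M, was at least 43.9-fold higher at day 2, with 3.06 and 1.99 against 163 and 102. At day 5 it had 18.5 and 20.4 against 45.7 and 36.4, an effect of 1.03 that was not called. H2-DMa, its partner chain, was raised at day 2 (2.36) and had 0.30 at day 5, but its change of −2.05 ± 0.48 was not called (adjusted p = 0.182, limma). Ifi30, a lysosomal thiol reductase, was lowered at both days, by 0.72 and 0.64.

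**Figure D3:**
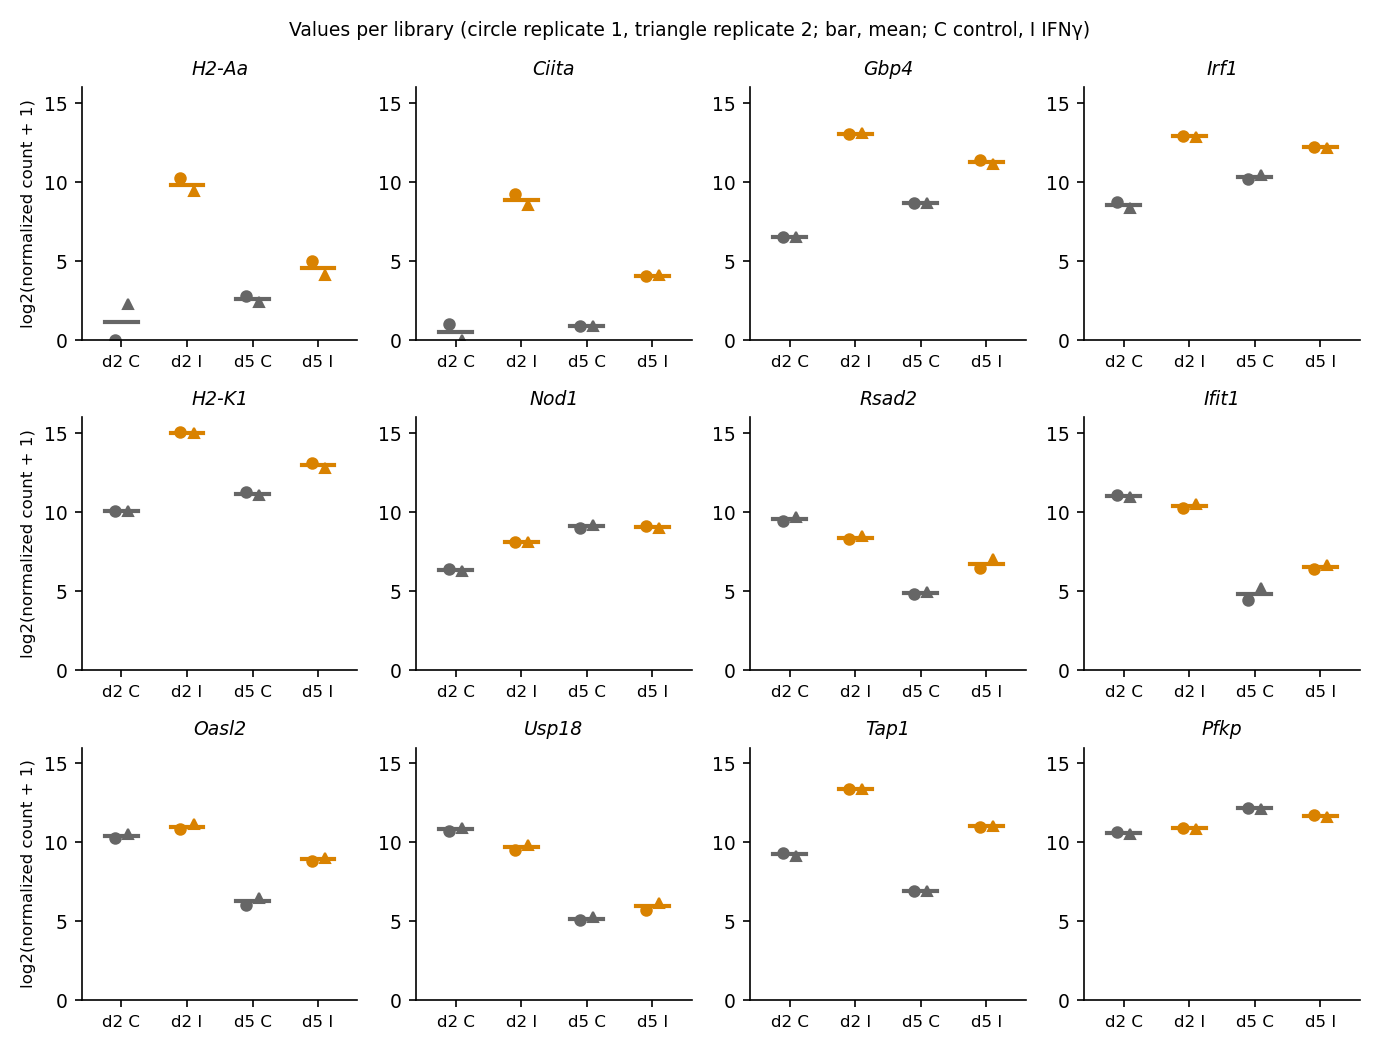
log2(normalized count + 1) of 12 genes in the 8 libraries, with control in gray and IFNγ-treated cells in orange, circles for replicate 1, triangles for replicate 2 and bars for the mean of 2. The distance between the orange and gray bars is the IFNγ effect, which shrank from day 2 to day 5 in H2-Aa, Ciita, Gbp4, Irf1, H2-K1 and Nod1, turned from below to above the controls in Rsad2, Ifit1 and Usp18, grew in Oasl2, stayed in Tap1 and turned from above to below in Pfkp.

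Guanylate-binding proteins, GTPases that attack the vacuoles of intracellular pathogens, were raised at both days but less at day 5. Of 11 members listed, 8 were matched by symbol and tested. All 8 were raised at both days, and the effect was lower in 7 and higher in 0. The median was 6.04 at day 2 and 3.23 at day 5 (3.24 with bounds). The 7 fell in treated cells. In control cells 3 rose, 3 fell and 1, Gbp8, had no called change. The count stayed at 7 when any 1 library was left out, while Gbp7 lost its call with all 24 libraries and Gbp11 by edgeR. These genes lie in clusters on chromosomes 3 and 5 and are similar in sequence, so that reads can be shared between them, and Gbp4, Gbp8 and Gbp9 overlap on chromosome 5.

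Gbp4 (chromosome 5, 105115767 to 105139586, minus strand) had the smallest p of all genes. It had 90.6 and 90.3 in control and 8541 and 8823 in treated libraries at day 2, and 404 and 417 against 2761 and 2293 at day 5. The effect fell from 94.9-fold to 6.12-fold, a change of −3.95 ± 0.14 on the log2 scale (adjusted p = 8.02e-06, limma), with a control level that rose by 2.17. Gbp2b (chromosome 3, 142594847 to 142619179, plus strand) had 1.02 and 0.993 against 581 and 713 at day 2, which is at least 215-fold, and 10.1 and 7.1 against 108 and 93.3 at day 5, which is 10.7-fold. Gbp2 had 518 and 366 against 19784 and 19887 at day 2, and 773 and 895 against 7229 and 6739 at day 5, a change of −2.44 ± 0.20 (adjusted p = 0.0012, limma). The treated libraries stayed above the controls, at 45.4-fold and 8.38-fold.

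Gbp8 went from an effect of 7.42 to 4.04 and Gbp11 from 6.98 to 3.19. Gbp11 was at the floor in control cells of day 5, where it was at least 9.23-fold higher with IFNγ. The changes of Gbp9, −1.07 ± 0.13, and of Gbp7, −0.75 ± 0.09, were smaller, and both genes fell in control cells as well. Gbp3 differed from the other members, with an effect of 2.75 at day 2 and 3.39 at day 5 and a change of 0.64 ± 0.20 that was not called (adjusted p = 0.332, limma).

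Genes of MHC class I and of antigen processing, which display peptides of the cytosol, also responded less at day 5. The effect was lower in 13 of 24 members tested and higher in 1, H2-T24. The median went from 3.37 to 1.92, with 21 raised at each day. All 13 were still raised at day 5 and all 13 fell in treated cells, while in control cells 5 rose, 5 fell and 3 had no called change. The count was 9 to 17 without single libraries, and calls were lost in 2 (B2m), 5 (H2-Q6 and Tapbp) and 6 (Erap1) of the 8 fits without 1 library. Erap1 also lost its call with all 24 libraries, Tapbp without the filter and H2-Q6 by edgeR. The heavy chain genes are paralogs that can share reads.

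H2-K1, a classical class I heavy chain (chromosome 17, 33996017 to 34000347, minus strand), had 1082 and 1089 in control and 34407 and 32926 in treated libraries at day 2, and 2466 and 2165 against 8835 and 7261 at day 5. The libraries of the arms were far apart at both days, at 31-fold and at 3.47-fold, with a change of −3.16 ± 0.14 (adjusted p = 2.89e-05, limma). H2-D1, another classical heavy chain, had 1404 and 1283 against 27915 and 26515 at day 2 and 1560.3 and 1515 against 6378 and 5261 at day 5. Here the loss lay mostly in treated cells, which fell by 2.23, while the control cells differed by 0.20 between the days.

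The immunoproteasome subunit Psmb10 had the larger change among the proteasome genes called, from 905 and 778 against 5321 and 5558 to 1138 and 1252 against 2124 and 1622, or −2.06 ± 0.18 (adjusted p = 0.00173, limma). Psmb8 had a change of −1.62 ± 0.15, and its partner Psmb9 one of −0.88 ± 0.19 that was not called (adjusted p = 0.138, limma). The activator subunits Psme1 and Psme2 had −1.06 and −0.96. B2m, the light chain shared by class I molecules, went from 2.14 to 1.22. The change was called for the tapasin-related peptide editor Tapbpl (−2.51) and, in the peptide-loading complex, for tapasin itself, Tapbp (−0.68), but not for the transporter chains Tap1 (−0.06) and Tap2 (−0.75, adjusted p = 0.103, limma). H2-T24, a nonclassical heavy chain, had 96.7 and 115 against 146 and 150.4 at day 2 and 9.26 and 6.22 against 42.3 and 41.9 at day 5. Its effect of 0.48 at day 2 was not called and that of 2.32 at day 5 was, a change of 1.84 ± 0.36 (adjusted p = 0.0992, limma). The call was lost without the filter, with all 24 libraries and in 6 of the fits without 1 library (adjusted p = 0.196 to 0.357, limma).

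Irf1, the transcription factor that carries the IFNγ signal to secondary targets, lies on chromosome 11 (53770014 to 53778374, plus strand). It had 424 and 327 in control and 7947 and 7484 in treated libraries at day 2, and 1198 and 1392 against 4852 and 4638 at day 5. The treated libraries fell by 0.70 and the control libraries rose by 1.79 on the log2 scale, so that the narrowing lay mostly in the control cells. The effect went from 20.7-fold to 3.67-fold, a change of −2.49 ± 0.17 (adjusted p = 0.000594, limma). Among the 13 interferon regulatory factors and partners tested it was the 1 called for a change, with 5 raised at day 2 and 7 at day 5. Irf8, a factor of myeloid cells, had 26.5 and 29.8 against 3045 and 3032 at day 2 and 3.37 and 2.66 against 381 and 319.5 at day 5. Its effect was 6.71 and 6.45 and the 95% interval of the change was −0.87 to 0.35. Nlrc5, the activator of class I genes, was raised at both days (6.08 and 4.96), as was Irf7 (1.42 and 1.23), without called changes. Batf2 was at least 106-fold higher at day 2 and raised at day 5 (3.21), and its change of −3.60 ± 0.73 was not called (adjusted p = 0.114, limma). Irf9, the DNA-binding part of ISGF3, had an effect of 0.22 at day 2 that was not called and 0.77 at day 5 that was, with the change not called (adjusted p = 0.194, limma).

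Promoters are printed for 4 genes whose effect weakened, to show the elements named above beside the values, as the 250 bases before to 50 bases after the start of a transcript in RefSeq (GRCm38.p6). Capitals mark GAS motifs (TTCNNNGAA, the same on both strands) and ISRE cores (GAAANNGAAA on either strand, so TTTCNNTTTC is the same core read from the other strand). The printed window of Irf1 (chr11:53769764-53770063, plus strand) holds a GAS motif. Another window of Irf1, not printed (chr11:53770223-53770522, plus strand), holds neither element. The window of Igtp (chr11:58199306-58199605, plus strand) holds a GAS motif and an ISRE core. That of Gbp2b (chr3:142594597-142594896, plus strand) holds an ISRE core, and that of H2-Aa (chr17:34287774-34288073, minus strand) neither.
Irf1: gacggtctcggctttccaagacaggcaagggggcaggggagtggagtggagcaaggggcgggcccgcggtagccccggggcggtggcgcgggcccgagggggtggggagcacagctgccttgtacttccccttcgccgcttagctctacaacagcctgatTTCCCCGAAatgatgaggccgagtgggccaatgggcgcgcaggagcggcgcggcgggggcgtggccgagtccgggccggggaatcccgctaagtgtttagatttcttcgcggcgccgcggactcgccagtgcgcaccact
Igtp: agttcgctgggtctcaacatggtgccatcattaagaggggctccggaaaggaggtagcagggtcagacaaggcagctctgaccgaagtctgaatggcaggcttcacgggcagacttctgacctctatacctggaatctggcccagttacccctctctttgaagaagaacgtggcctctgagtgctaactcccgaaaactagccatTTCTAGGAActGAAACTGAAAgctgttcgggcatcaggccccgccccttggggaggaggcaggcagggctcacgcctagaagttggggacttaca
Gbp2b: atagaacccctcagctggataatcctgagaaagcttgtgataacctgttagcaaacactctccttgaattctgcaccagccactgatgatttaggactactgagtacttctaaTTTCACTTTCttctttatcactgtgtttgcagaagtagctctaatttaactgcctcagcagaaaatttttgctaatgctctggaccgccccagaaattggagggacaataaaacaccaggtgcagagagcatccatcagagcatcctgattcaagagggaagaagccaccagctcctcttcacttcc
H2-Aa: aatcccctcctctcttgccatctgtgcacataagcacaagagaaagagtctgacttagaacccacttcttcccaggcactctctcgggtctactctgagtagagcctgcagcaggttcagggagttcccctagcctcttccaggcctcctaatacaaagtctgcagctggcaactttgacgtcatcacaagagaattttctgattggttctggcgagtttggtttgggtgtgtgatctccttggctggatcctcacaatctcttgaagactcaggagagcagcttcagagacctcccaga

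Windows were at hand for 53 of the 75 genes with a lower effect, 20 of the 32 with a higher effect and 99 of the 124 raised at both days with the interval within ±1. A GAS motif was found in 11 of the 53 (20.8%, exact 95% interval 10.8 to 34.1), in 0 of the 20 (upper limit 16.8%) and in 18 of the 99 (18.2%), against 8.07% of the 11316 genes tested that had a window and 9.55% of all 27025 genes with one. An ISRE core was found in 15 of the 53 (28.3%, 16.8 to 42.3), in 7 of the 20 (35.0%, 15.4 to 59.2) and in 12 of the 99 (12.1%), against 3.69% of tested genes and 3.99% of all genes. A gene counts once where any of its windows holds the motif. The intervals cover counting error only and overlap between the classes. A match is a description of these letters and not a binding site.

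Besides these lists, several responses were lost almost entirely. Apol6, an apolipoprotein L gene, had 16.3 and 6.95 against 1393 and 1268 at day 2 and 17.7 and 47.1 against 41.4 and 66.4 at day 5. The arms overlapped at day 5, and the change was −5.99 ± 0.69 (adjusted p = 0.007, limma). Nod1, a sensor of bacterial peptidoglycan, had 83.5 and 75.4 against 277 and 277 at day 2 and 516 and 579.9 against 552 and 523 at day 5. Both arms rose, the control cells by 2.77 and the treated cells by 0.95, and met at the same level. The change was −1.82 ± 0.18 (adjusted p = 0.00319, limma).

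The complement protease C1s1 likewise met its controls at day 5, with 716 and 574 against 2718 and 2671 at day 2 and 1034 and 1202 against 1133 and 1323 at day 5 (change −1.93 ± 0.18, adjusted p = 0.00232, limma). Among 13 complement genes tested, the effect was lower in 2, C1s1 and C1ra (lost with all 24 libraries and in 4 fits without 1 library), and higher in 0, and 6 were raised at day 2 and 3 at day 5. Serping1, the inhibitor of these proteases, was raised at both days (3.10 and 2.67) with no called change. Il12rb1, a chain of the IL-12 receptor, went from 3.04 to 0.18 and Il18bp, a secreted decoy of IL-18, from 3.35 to 1.31. They were the 2 of 20 chemokines, cytokines and receptors tested with a lower effect, and 0 had a higher one. The chemokine Cxcl9 was at least 206-fold higher with IFNγ at day 2 (1.02 and 0 against 409 and 835) and at least 8.22-fold higher at day 5 (0 and 0 against 8.62 and 34), and its change was not called (adjusted p = 0.119, limma). Cxcl10 had an effect of 4.57 and 4.31 without a called change, but the interval of the change, from −1.19 to 0.67, was not within ±1.

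Of the 75 genes with a lower effect, 37 were in one of the 23 lists and 38 in none. Chosen after their values were seen, these included Wars, the tryptophanyl-tRNA synthetase, with 3080.5 and 3222 against 16018 and 18038 at day 2 and 2912 and 2933 against 5076 and 4471 at day 5 (change −1.73 ± 0.11, adjusted p = 0.000494, limma). Its control level was similar at both days, and the treated libraries fell. Ly75, an endocytic receptor of antigen-presenting cells, rose in both arms and went from 2.33 to 0.79. Apobec3, a cytidine deaminase that restricts retroviruses, had 357 and 314 against 917 and 951 at day 2 and 1352 and 1191 against 1652 and 1454 at day 5. Its day 5 effect of 0.29 was not called. A gene listed without a symbol, ENSMUSG00000028269, went from 6.27 to 3.38. Plekha2, a phosphoinositide-binding adaptor, was raised at day 2 (468 and 427 against 1247 and 1261) and lowered at day 5 (981 and 870.3 against 753 and 698), with effects of 1.49 and −0.35.

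Other responses were kept, although the transcripts themselves fell. Tap1, a chain of the peptide transporter, had 646 and 561 against 10458 and 10731 at day 2 and 121 and 121 against 2039 and 2083 at day 5. It fell by 2.36 in treated and 2.30 in control cells, and the change of −0.06 had a 95% interval of −0.32 to 0.21. H2-T23, the nonclassical heavy chain Qa-1, had 454 and 526 against 4922 and 4969 and then 28.6 and 24 against 269.9 and 278, with an effect of 3.34 at both days and an interval of −0.41 to 0.41.

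Immunity-related GTPases, which disrupt the vacuoles of pathogens together with guanylate-binding proteins, were mostly raised at both days, with a range of changes. Of 15 tested, 14 were raised at day 2 and 14 at day 5, and the effect was lower in 2, Igtp and Gm12250, and higher in 0. The median was 5.62 and 4.63, with control cells at the floor for 7 members at day 5. Of the 14 raised at both days, 4 had the interval of the change within ±1. Tgtp2 had 120.2 and 133 against 20422 and 21625 at day 2 and 5.05 and 5.33 against 1492 and 1049 at day 5, or 165-fold and 202-fold (interval of the change −0.23 to 0.82), and its near-identical copy Tgtp1 can share its reads. Irgm2 had an effect of 4.34 and 4.12 (interval −0.65 to 0.20). Igtp had 303 and 318 against 15326 and 15337 and then 67.3 and 72.8 against 2042 and 1937, and its change of −0.81 ± 0.11 was called (adjusted p = 0.0174, limma). With all 24 libraries neither Igtp nor Gm12250 was called, and Igtp was lost in 2 of the fits without 1 library (adjusted p = 0.172 to 0.176, limma). All 15 fell in both arms, so that the ratio was high at day 5 while the level in treated cells was much lower than at day 2.

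The antiviral genes of the type I interferon program went the other way. Of 50 tested, the effect was higher at day 5 in 13 and lower in 1, Samhd1, and the median went from 0.517 to 1.09. At day 2, 23 were raised and 3 lowered (Rsad2, Oas2 and Mx2). At day 5, 37 were raised and 0 lowered. The 13 were Rsad2, Oas2, Ifit1, Ifi44, Rtp4, Oasl2, Ifit3, Lgals3bp, Mx2, Ifih1, Cmpk2, Lgals9 and Ddx58, and each fell from day 2 to day 5 in both arms. Leaving out day 2 libraries lowered the count, to 8 and 6 without either control library and to 5 and 7 without either IFNγ-treated library. It was 9 to 14 without single day 5 libraries. Under each alternative the calls of Rsad2, Oasl2 and Ddx58 held. Those of Ifi44, Ifih1, Ifit1, Ifit3, Lgals9 and Mx2 were lost with all 24 libraries, and those of Oas2, Lgals9 and Mx2 without the filter. Calls were also lost in 1 (Lgals3bp), 2 (Ifit1), 4 (Ifit3), 5 (Rtp4, Oas2, Cmpk2 and Lgals9) or 7 (Mx2) of the fits without 1 library.

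Rsad2, which encodes viperin, an inhibitor of viral replication, lies on chromosome 12 (26442746 to 26456452, minus strand). It had 697 and 815 in control and 311 and 356 in treated libraries at day 2, and 26.9 and 30.2 against 86.2 and 130.5 at day 5. The arms did not overlap at either day and changed places, with treated cells below the controls at day 2 and above them at day 5. The effect was −1.18 and 1.86, both called, with a change of 3.03 ± 0.30 (adjusted p = 0.00364, limma). Ifit1, which binds viral RNA ends (chromosome 19, 34640871 to 34650009, plus strand), had 2154 and 2029.7 against 1219.9 and 1485 at day 2 and 21 and 35.5 against 84.5 and 98.1 at day 5. Its effect of −0.63 at day 2 was not called and that of 1.70 at day 5 was, and the change was 2.33 ± 0.32 (adjusted p = 0.0154, limma). Oas2, a sensor of double-stranded RNA, changed places as well, with 1255 and 1384 against 495 and 538 and then 53.9 and 111 against 132 and 203, with a change of 2.42 ± 0.44 (adjusted p = 0.0716, limma).

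Oasl2, a relative of Oas2, had 1211 and 1444 against 1839 and 2248 at day 2 and 64.8 and 88.8 against 448 and 518 at day 5. It was higher in treated libraries at both days, by 1.54-fold, which was not called, and by 6.28-fold (change 2.03 ± 0.24, adjusted p = 0.00764, limma). Ifi44 had 1498 and 1364 against 1574 and 1576 and then 9.26 and 6.22 against 44.8 and 38, the largest fall in control cells among the 13, of 7.38 on the log2 scale. Rtp4 had an effect of 0.51 and 2.62. Ifit3, which shares sequence with Ifit3b, had 0.40 and 2.05. The RNA sensors Ifih1 (0.15 and 1.47) and Ddx58 (−0.08 and 0.74), which encode MDA5 and RIG-I, had smaller changes, of 1.33 ± 0.14 and 0.81 ± 0.10. Mx2 was lowered at day 2 (−1.02) and not called at day 5 (0.32). Ifit2, next to Ifit1, did not share this pattern, with an effect of 1.10 and 0.63 and an interval of the change from −0.90 to −0.04. Samhd1, a dNTP hydrolase that restricts viruses, went from 1.56 to 0.63.

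The control cells of day 2 had high levels of these genes. For all 50 antiviral genes, both control libraries of day 2 lay above both NPC libraries, which held for 40.6% of all genes tested and is given without a test. The median normalized count of the 50 was 17.2 in NPCs, 834.7 in control and 1171 in treated cells at day 2, 102.8 and 410 at day 5, and 70.1 in ESCs. For the 13 genes it was 8.63 in NPCs, 1319 and 1353 at day 2, 76.8 and 204.9 at day 5, and 3.85 in ESCs. For all 13, both control libraries of day 2 lay above both of day 5, as for 6655 of the 15837 genes. The change by which the 13 were picked includes the fall in control cells, so this follows in part from the choice. It held for all 15 immunity-related GTPases too, of which 0 had a higher effect at day 5. The fibroblast and Y-linked sums given above were higher at day 2 too, in both arms, and the part of feeder RNA in the antiviral levels was not tested. For the 8 guanylate-binding proteins, the medians in control cells were 15.8 in NPCs, 234 at day 2 and 193.2 at day 5.

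**Figure D4:**
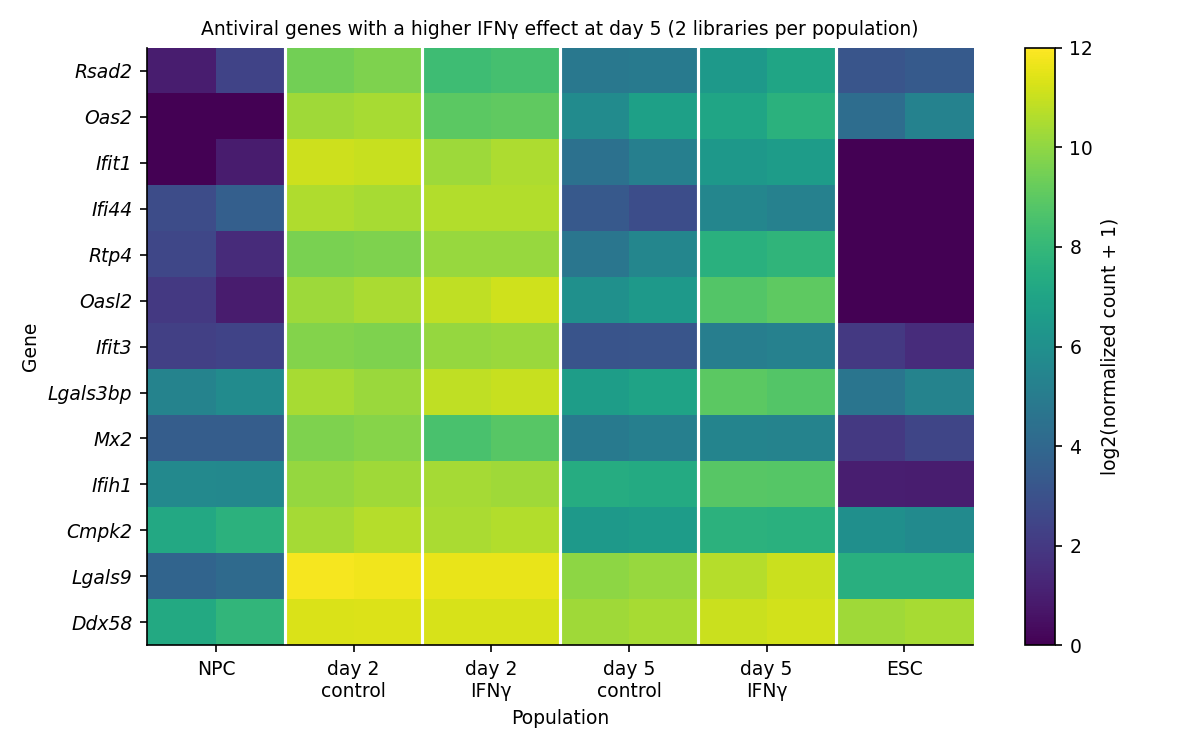
log2(normalized count + 1) of the 13 antiviral genes with a higher IFNγ effect at day 5 (rows) in the 2 libraries of each of 6 populations (columns), from dark (0) to yellow (12). Day 2 control and IFNγ-treated cells are bright, and NPCs and ESCs mostly dark. At day 5 the treated cells are brighter than the controls, which follows in part from how the genes were picked. Of the 13, 12 were called raised at day 5.

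Promoters of 3 antiviral genes with a higher effect are printed to set them beside those above, in the same form and build. Rsad2 (chr12:26456403-26456702, minus strand) holds an ISRE core, Ifit1 (chr19:34640639-34640938, plus strand) 2, and Isg15 (chr4:156200769-156201068, minus strand) 3 that overlap.
Rsad2: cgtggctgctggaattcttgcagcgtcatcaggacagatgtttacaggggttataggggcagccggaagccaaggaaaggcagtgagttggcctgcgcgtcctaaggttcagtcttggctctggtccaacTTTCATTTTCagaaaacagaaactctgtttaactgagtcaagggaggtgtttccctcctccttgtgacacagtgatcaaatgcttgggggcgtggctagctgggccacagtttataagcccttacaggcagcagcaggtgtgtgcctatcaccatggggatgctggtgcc
Ifit1: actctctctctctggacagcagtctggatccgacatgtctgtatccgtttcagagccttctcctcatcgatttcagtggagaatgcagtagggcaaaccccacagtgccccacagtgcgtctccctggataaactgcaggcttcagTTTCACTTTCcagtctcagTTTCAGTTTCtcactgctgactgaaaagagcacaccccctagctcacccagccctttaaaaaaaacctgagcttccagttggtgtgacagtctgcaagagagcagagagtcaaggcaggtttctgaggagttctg
Isg15: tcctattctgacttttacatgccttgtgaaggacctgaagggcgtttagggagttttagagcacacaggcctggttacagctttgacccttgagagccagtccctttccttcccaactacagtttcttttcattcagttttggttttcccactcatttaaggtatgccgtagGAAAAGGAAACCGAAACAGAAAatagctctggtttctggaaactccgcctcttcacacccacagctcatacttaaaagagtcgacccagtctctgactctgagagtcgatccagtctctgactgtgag

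Feedback inhibitors of interferon signaling mostly had no called change. Of 18 tested, the effect was higher at day 5 in 2, Usp18 and Isg15, and lower in 0. Usp18, a protease that blocks the type I interferon receptor, had 1709.8 and 1925 against 736 and 905 at day 2 and 32.8 and 37.3 against 50.9 and 71.2 at day 5. Treated libraries lay below the controls at day 2 (−1.15) and above them at day 5 (0.77), with a change of 1.92 ± 0.27 (adjusted p = 0.0175, limma) that was lost in 2 of the fits without 1 library and with all 24. Isg15, a ubiquitin-like modifier that also stabilizes USP18 in human cells, had 435 and 396 against 415 and 559 at day 2, where the arms overlapped, and 19.4 and 31.1 against 96.6 and 119 at day 5 (change 1.87 ± 0.35, adjusted p = 0.0837, limma). The call of Isg15 was lost without the filter, with all 24 libraries and in 6 of the fits without 1 library (adjusted p = 0.136 to 0.334, limma). Socs1, the JAK inhibitor induced by IFNγ itself, was raised at both days, from 89.6 and 79.4 to 583 and 586 at day 2 and from 35.3 and 32 to 145 and 137 at day 5. Its change of −0.74 ± 0.23 was not called (adjusted p = 0.343, limma). Socs3 was raised by 0.67 and 0.53, with an interval of the change from −0.44 to 0.15.

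Stat2, a subunit of ISGF3 (1.78 and 1.21), and Stat3, which carries the LIF signal (0.62 and 0.33), were raised at both days, with intervals of the change from −0.94 to −0.21 and from −0.55 to −0.03 and no call. Of the 19 genes of the LIF and STAT3 pathway, 1 had a lower effect, the IκB-like cofactor Bcl3 (0.97 and 0.02), which is also the 1 of 18 NF-κB genes called and was lost in 7 of the fits without 1 library. Lifr, the LIF receptor, was raised at both days (0.93 and 1.05, interval −0.52 to 0.75), and Il6st, its partner gp130, had 0.37 and 0.38, neither called.

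Genes lowered by IFNγ showed fewer changes. Of 31 collagens tested, 9 were lowered at day 2 and 7 at day 5, 4 of them at both, against 1.91% and 4.09% of all genes on these days. The list's median was −0.293 and −0.0199 (−0.094 with bounds at day 5). The effect changed in 1, Col6a3, a chain of microfibrillar collagen, which had 2781 and 1850.1 against 827 and 852 at day 2 and 124 and 99.5 against 112 and 107 at day 5. The arms lay apart at day 2 and overlapped at day 5 (change 1.41 ± 0.27, adjusted p = 0.0837, limma). The call was lost by edgeR, without the filter, with all 24 libraries and in 6 of the fits without 1 library (adjusted p = 0.101 to 0.305, limma). Col1a1 had 12559 and 9244 against 5763 and 5645 and then 439 and 321 against 272 and 161, and was lowered by 0.92 and 0.84, with an interval of the change from −0.70 to 0.86. Collagen levels moved with the fibroblast sums, whose part was not tested. Among 26 integrins and laminins, 2 had a higher effect, the receptor chains Itgb5 (−0.41 and 0.15) and Itga6 (−0.49 and 0.20), both lowered at day 2 and not called at day 5, and each lost the call of its change in 6 of the fits without 1 library. Itga6 also lost it with a pseudocount of 0.1 and without the filter. Itga9 had −0.44, not called, and −0.70, called, with an interval from −0.87 to 0.35.

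Several genes outside the lists turned from lowered to raised, of which Enpp3, an ectonucleotidase, had the smallest p. It had 500.0 and 568 against 297 and 336 at day 2 and 4129.8 and 4305 against 5290.3 and 5438 at day 5, a change of 1.10 ± 0.13 (adjusted p = 0.007, limma). The arms did not overlap at either day. The mitochondrial adenylate kinase Ak4 went from −0.69 to 0.44 and the vesicle GTPase Rab27a from −0.37 to 0.31. Tex15, a germline gene, was lowered at day 2 (679 and 564 against 279 and 208) and had −0.13 at day 5, not called. In the other direction, Plxnb1, a semaphorin receptor, and Id2, an inhibitor of bHLH factors, were lowered at day 5 (−0.42 and −0.34) and had 0.26 and 0.33 at day 2, not called. The changes of Ak4, of Rab27a and Tex15, and of Plxnb1 and Id2 were lost in 5, 6 and 7 of the fits without 1 library. Tex15 also lost its call without the filter, and Id2 lost it there, with a pseudocount of 0.1 and with all 24 libraries. Of the 32 genes with a higher effect, 12 were in no list.

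Glycolysis and hypoxia genes were lowered at day 5 without a change of the effect being called for most. Of 29 tested, 14 were lowered at day 5 and 1 at day 2, against 4.09% and 1.91% of all genes. The median was −0.0905 at day 2 and −0.465 at day 5, and the change was lower in 1, Pfkp, and higher in 0. This platelet isoform of phosphofructokinase had 1609 and 1461 against 1896 and 1852 at day 2 and 4663 and 4461 against 3354 and 3107 at day 5, effects of 0.29 and −0.50 with a change of −0.79 ± 0.10 (adjusted p = 0.011, limma). The lactate transporter Slc16a3 had 107 and 82.4 against 61.7 and 90 at day 2, where the arms overlapped, and 2628 and 1978 against 1161 and 644 at day 5. Its day 5 effect of −1.40 was called and its change of −1.07 ± 0.41 was not (adjusted p = 0.461, limma). Lactate dehydrogenase Ldha had −0.33, not called, and −0.69, called. The count of 14 was 2 without IFNγ-treated replicate 2 and 3 without control replicate 1 of day 5, and 8 or 9 without any 1 of the day 2 libraries.

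The remaining lists gave few or no changes. Over all genes the change was called lower for 0.474% and higher for 0.202%, so a count of 0 in lists this short is near that share. In the pluripotency network the effect changed in 0 of 36 genes (limma), with 2 lowered at day 2, and 1 raised and 4 lowered at day 5. The 2 lowered at day 2 were lowered at day 5 too. Tfcp2l1, a target of LIF and STAT3, was raised at day 5 (0.77) and had 0.07 at day 2, while Klf4 (−0.64) was lowered at day 5 but not at day 2. Pou5f1 was lowered at both days, with 8739 and 8204 against 6831 and 6475 at day 2. At day 5 it had 25634 and 23601 against 21757 and 19614, an effect of −0.25. Reads of the cassette's Klf4, Pou5f1, Sox2 and Myc cannot be told apart from those of the endogenous genes. Esrrb had 73.3 and 36.7 against 94.4 and 44.5 at day 2 and 3917 and 5166 against 5636 and 7035 at day 5, with a wide interval of the change from −1.04 to 1.38. In the 20 genes of DNA methylation and demethylation 0 changes were called. Tet1 had effects of 0.29, not called, and 0.32, called, with an interval from −0.27 to 0.33, and Gadd45a had 0.10 and 0.95, with an interval from 0.05 to 1.66 and an adjusted p of 0.492 (limma).

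For cell death, 12 of 28 genes were raised at day 2 and 13 at day 5, against 3.42% and 5.00% of all genes. The effect was lower in 1, Nod1. Casp1, the inflammatory caspase, had a log2 effect of 5.49 at day 2. At day 5, with controls at the floor, its log2 effect was at least 3.84 (14.3-fold). Among 13 checkpoint and adhesion ligands 4 were raised at each day and the effect changed in 0, with Cd274, which encodes PD-L1, at 3.64 and 2.33 (adjusted p of the change 0.122, limma). The mesenchymal-to-epithelial transition (28 genes), neural (26), germline (7) and cell cycle (35) lists had 0 changes in either direction, again near the share over all genes.

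**Figure D5:**
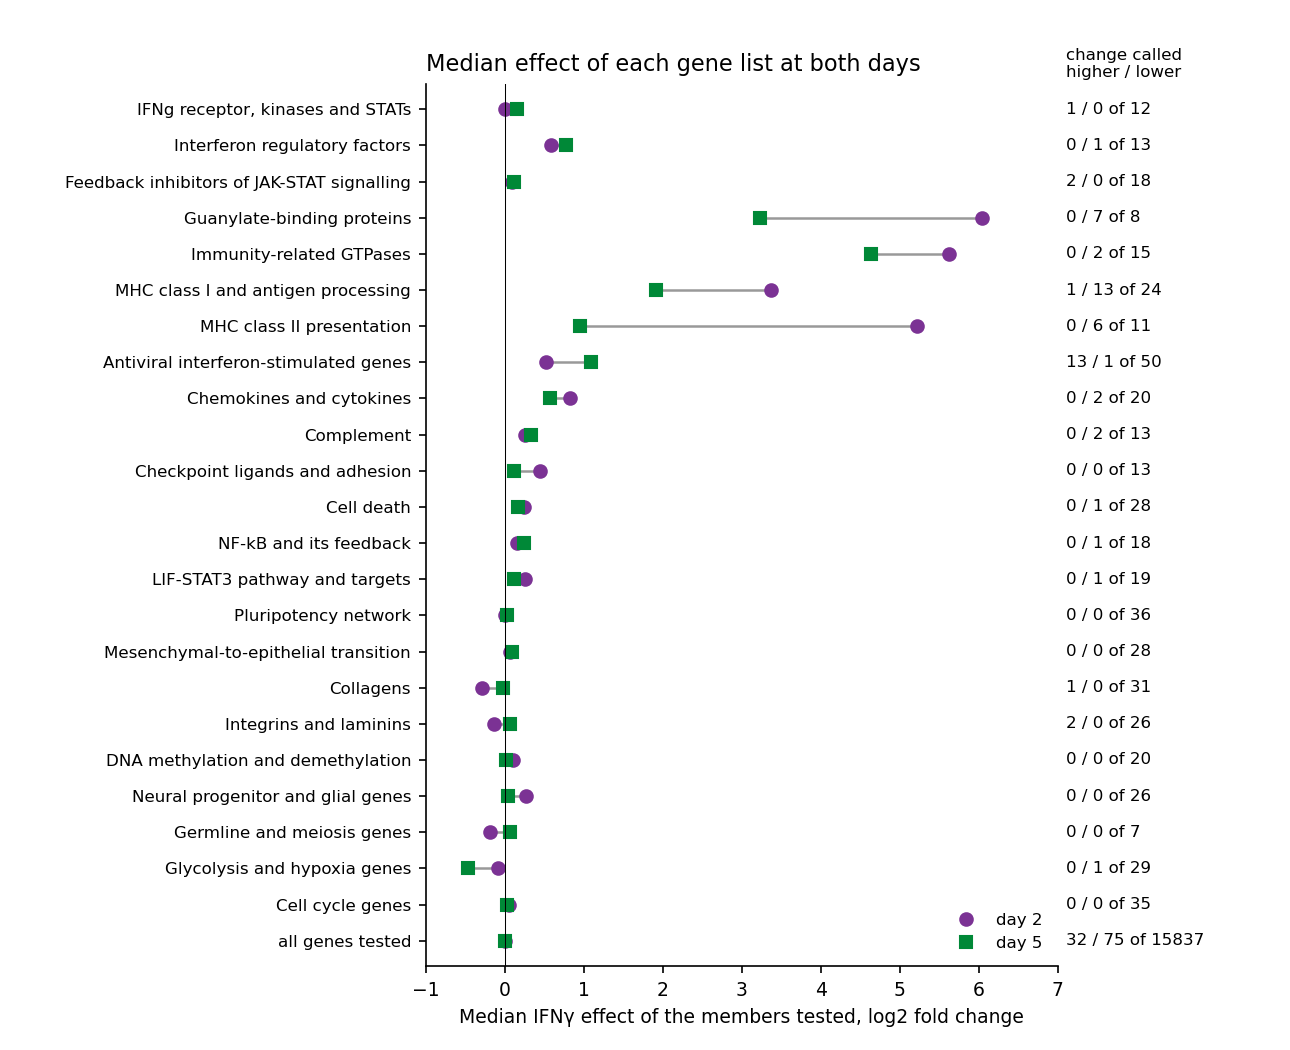
Median IFNγ effect at day 2 (purple circles) and day 5 (green squares) over the tested members of each of 23 gene lists and of all genes, as log2 fold change, with the number of members whose change was called higher and lower at the right. MHC class II genes moved furthest, from 5.22 to 0.947, guanylate-binding proteins and MHC class I genes also moved left, and antiviral genes moved right, from 0.517 to 1.09.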

How the data were processed

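RNA was sequenced from rRNA-depleted, stranded libraries with paired ends. The authors aligned reads to mm10 with STAR, counted them per gene with HTSeq 0.6.1 and scaled them with DESeq2, per the labels and the study's methods, and the strand setting of the counting is not given in the sources used here. The authors deposited 1 table of normalized counts (a signal, divided by a factor per library), with Ensembl gene identifiers, of which 95.2% were matched to GENCODE symbols. Nonzero values were whole multiples of 1 read in each library (100% within 0.001 reads), and the recovered totals were 26661831 to 37056508 reads on genes per library, of which mt-Rnr2 took 15.6% to 17.8%. Replicates differed by more than counting noise (chi-square per degree of freedom 7.88 to 16.8).

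Values were log2 transformed with a pseudocount of 1. Genes with a mean above 10 over the 8 libraries were fitted with limma 3.58.1 in R 4.3.3, with a mean for each of the 4 groups and trended, moderated variances. Benjamini-Hochberg adjustment ran over all 15837 genes, and an adjusted p under 0.1 was called. The median SE of a change was 0.19 and the smallest change called was 0.45. An exact permutation test of 2 libraries against 2 cannot give a p below 0.33, so none was run. Where a control group had at most 3 reads in each library, a fold is given as a lower bound against that floor, which covers counting error only. Fold changes on this scale understate the change of low genes.

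The members, the gene lists and the rule for named genes were chosen with earlier results of these data known. The rule named, among genes that reached a mean of 100 in some group and whose arms lay apart, the 8 largest called decreases and increases, the 5 largest effects of each class, the 3 smallest p of each list (and each called member where at most 8 were called) and genes the study discusses for these days. A gene that this rule names is not reported here. Other list members named beside a count were chosen after their values were seen. Allele-specific shares of X-linked reads, 1 value per population, were not used. Alternatives were another pseudocount, no filter, rescaling, all 24 libraries, replicate blocks, DESeq2 1.42.0 and edgeR 4.0.16 on recovered reads (121 and 139, and 32 and 68 genes called higher and lower), each library left out and, for the lists, counts without each library, which were chosen after seeing the data. Promoter windows were taken from RefSeq. The fits were tested on simulated data. Gbp5, Gbp6 and Gbp10 were not analysed here.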

Additional observations from a re-analysis of the deposited data

Results flagged for a closer look

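The difference between the IFNγ effects of the 2 days was itself tested, by the interaction in limma, and gave 32 genes with a higher and 75 with a lower effect at day 5. Among the genes named, it was largest for H2-Aa (−6.72), Apol6 (−5.99), H2-Ab1 (−5.36), Cd74 (−5.35), H2-Eb1 (−5.22), Ciita (−5.21), Gbp2b (−4.91) and H2-DMb1 (−4.19) on the log2 scale. The fitted values of H2-Aa, Ciita, Gbp2b and H2-DMb1, whose day 2 controls were at or near the floor, depend on the pseudocount, and with 0.1 the calls of H2-Aa and Ciita were lost (adjusted p = 0.204 and 0.155, limma). In the other direction it was largest for Rsad2 (3.03), Oas2 (2.42), Ifit1 (2.33), Ifi44 (2.16), Rtp4 (2.11), Oasl2 (2.03), Usp18 (1.92) and Isg15 (1.87). The pathway genes Irf1 (−2.49) and Gbp2 (−2.44) also differed between the days.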

How the results depend on the processing

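The counts of changed genes moved with the spread a fit assumed and with single libraries. The 32 genes with a higher effect became 20 without the filter, 134 with all 24 libraries, 59 with a replicate block, 447 with a replicate block within each day, 121 by DESeq2 and 8 to 190 when each library was left out. The 75 with a lower effect became 156 with all 24 libraries, 524 with the block within each day, 139 by DESeq2 and 42 to 269 when each library was left out. DESeq2 called all 32 and 70 of the 75, and both blocks called all 32 and all 75. Deviations of same-numbered libraries correlated at 0.349 within day 2 and 0.281 within day 5, a hint that they varied together within a day, but at −0.0539 to 0.0239 across days, and no source says what the numbers share. At day 2, the 541 raised genes became 1296 with the block within each day and 279 to 585 when each library was left out, and the 303 lowered genes 188 without the filter, 528 with all 24 libraries, 460 with the block, 1095 with the block within each day and 53 to 386. At day 5, the 792 raised genes became 376, 1395 (all 24), 2081 (block within each day) and 189 to 1460, and the 647 lowered genes 190, 1080, 1941, 1005 (block) and 41 to 1503. At a threshold of 0.05 there were 133 genes raised and 25 lowered at both days, 180 raised and 147 lowered at day 5 alone, 96 lowered at day 2 alone, 9 raised late, 5 lowered and weakened, 1 lowered then raised and 0 raised then lowered. By edgeR 1 was lowered late and 4 strengthened. An ISRE core on 1 strand alone was in 2.06% of all genes, 1.77% of tested genes, 7.55% with a lower effect, 10.0% with a higher effect and 6.06% of those kept. For list counts, each library left out gave 5 to 14 antiviral genes and 2 to 19 glycolysis genes. None of the 107 genes called for a change turned its sign under the 16 alternatives, but 4 of 32 and 36 of 75 kept their call under each of them, or 12 and 50 where no library was left out. Of the 46 named ones, 12 lost the call with all 24 libraries, 8 without the filter, 4 by edgeR, 4 with a pseudocount of 0.1 and 1 by DESeq2. Of those not called, Irf8 turned to 0.065 with a pseudocount of 0.1, 0.110 by DESeq2 and 0.063 by edgeR, and Mmp3 to −0.092, −0.042 and −0.026. When each library was left out, the sign also turned for H2-T23 (−0.123 to 0.123), Mmp3 (−0.38 to 0.403), Col3a1 (−0.4 to 0.302), Il6st (−0.212 to 0.223), Tet1 (−0.108 to 0.17), Esrrb (−0.364 to 0.703), Lifr (−0.18 to 0.416), Col1a1 (−0.295 to 0.457), Rtn4r (−0.247 to 0.395), Osbp2 (−0.131 to 0.221), Tap1 (−0.158 to 0.045) and Itga9 (−0.581 to 0.063). The cause of these moves was not tested. With 2 libraries a group, the 95% interval of a change reached 0.432 to either side of it at the median.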
